A study of Ovis aries with 32 samples.

Results

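Untreated middle cerebral artery (MCA) from newborn lambs was compared with untreated MCA from premature fetuses, to describe how the artery's transcripts differed between these ages with no phenylephrine (PHE) given. The members were the 4 untreated newborn arrays and the 4 untreated premature arrays, 8 of the 32 arrays of the series. On them, genes were tested when their probe was marked well above background on all 4 arrays of either age, which 9517 of the 14182 genes on the array met.

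The study isolated MCA segments from sheep at 4 ages, cleaned them of fat and connective tissue, and hybridized RNA from segments with or without PHE to 1-colour Agilent sheep arrays, 4 arrays per group. The premature fetuses were at 96 days of gestation. Newborn lambs are labelled 12 hours old, whereas the study's methods give 5 days, and the files do not settle which holds. Untreated segments received 0 µM PHE and treated segments 10 µM PHE for 30 min in a tissue bath; how long untreated segments stood in the bath in that period is not stated in the methods used here.

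Arteries of the fetal brain go on maturing through late gestation and birth. Smooth muscle cells leave a proliferating, matrix-making state and accumulate the thin-filament and myosin-regulating proteins with which they contract, while insulin-like growth factors and other fetal growth signals decline. Around birth a surge of cortisol, the rise in blood oxygen and the switch to milk fat as fuel each act on many tissues, and glucocorticoid receptor targets, glucose transporters and fatty acid handling genes are classical readouts of them.

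A level is given below as the log2 ratio of a probe's processed intensity to its array's 75th percentile, so that 0 is that percentile and each unit is a doubling. A difference is the newborn mean minus the premature mean on this scale, with its standard error (SE). A gene was called when its adjusted p in limma was under 0.05 and its difference reached 1.5-fold. The 75th percentile lay between 645 and 864 intensity units on the newborn arrays and between 638 and 892 on the premature arrays. The median background did not overlap, at 84 to 86 units on the newborn arrays and 72.5 to 76 on the premature arrays. Its part in the levels of dim probes was not tested. Between 63.7% and 68.9% of probes were well above background on newborn arrays, and between 65.9% and 71.2% on premature arrays. The number of arrays, 4 per group, limits the precision.

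All 8 newborn arrays, untreated and PHE-treated, were on 1 slide and all 8 premature arrays on another, scanned on the same day with the same scanner. No slide held both ages, so age and slide cannot be told apart for any difference below. Of the genes tested, 1900 carried a symbol. Names matched through the group means in the study's supplementary table exist only for genes that the study lists as altered with PHE at some age. They gave most tested members of the matrix, fibroblast, endothelial, brain, cell cycle, oxygen, cholesterol, heat shock, glucocorticoid and immediate early lists.

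Of the 9517 genes tested, 2160 were called (22.7%), 1156 of them higher in the newborn lamb (12.1%) and 1004 lower (10.5%). The median difference over all genes tested was 0.00. Among the 1900 genes with a symbol, 532 were called (28%), 286 higher (15.1%) and 246 lower (12.9%). Every gene list below is drawn from genes with a symbol, so these are the shares to set beside its counts. Called genes that were well above background on all 8 arrays and changed at least 2-fold numbered 424 higher and 308 lower, and 65 and 40 of these changed at least 4-fold. Every newborn value lay on one side of every premature value for 1948 of the called genes, and for 3333 of all genes tested (35%). The widest difference of all, singled out after its value was seen, was of a transcript with no symbol (EE765701): it was at least 101-fold lower in the newborn lamb (means -6.62 and 1.88, adjusted p = 4.58e-07). On background correction by a normal-exponential model (normexp), with 50 intensity units then added to every value, the median of all genes shifted by -0.15 and 699 genes were called. The added units narrow the differences of dim probes by construction. A call lost or a difference reduced there is therefore no separate evidence against a dim gene. Of the 78 called genes named below under the rules for named genes, 37 kept their call there. All 78 kept it when arrays were scaled to their median and when they were quantile normalized, although median scaling turned the balance of all calls to 1049 higher and 1142 lower. A fold given as at least is a bound in the main scaling, and the difference on normexp correction can be smaller.

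**Figure D1:**
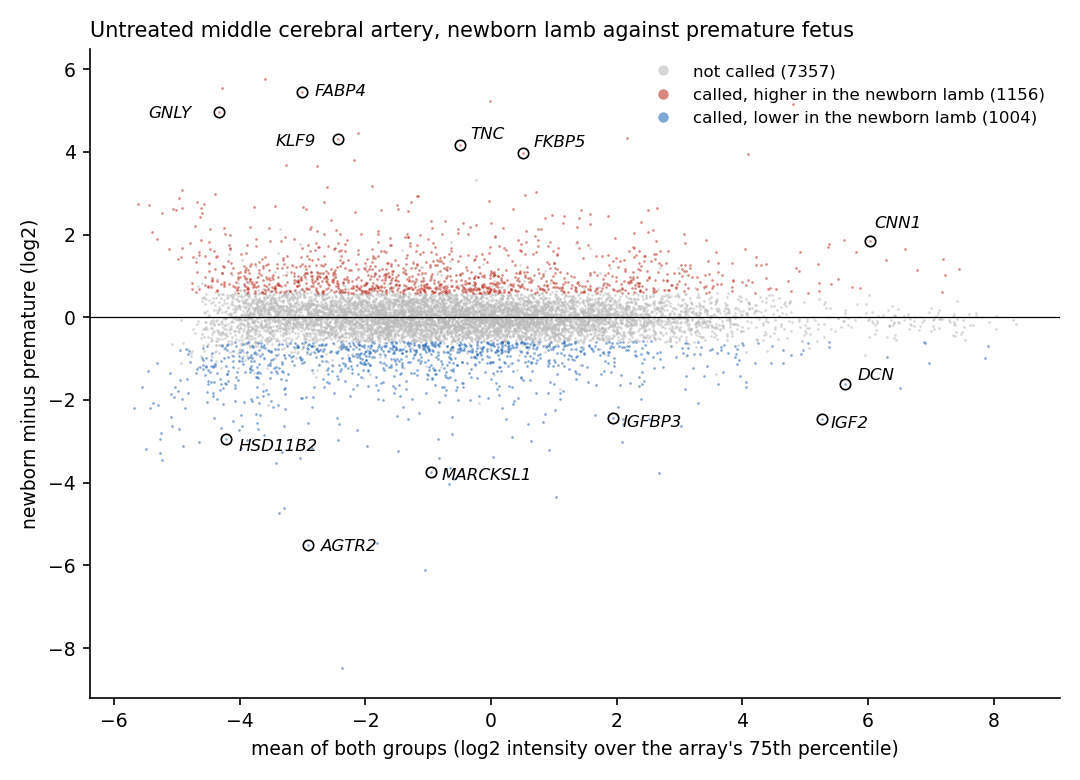
Difference between newborn and premature means (log2, vertical) against the mean of both groups (log2 intensity over the array's 75th percentile, horizontal), 1 point per gene tested. The 1156 genes called higher and the 1004 called lower are coloured, the grey points are the genes not called, and rings mark genes described in the text.

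The smooth muscle contractile list moved upward. All 8 of its members on the array were well above background on all 8 arrays, so transcripts of this list were present in the tissue labelled as artery. Not all of its members are particular to smooth muscle. No probe is named for ACTA2, MYH11 or TAGLN, the most used markers of smooth muscle. Of these 8, 6 were called, each higher, with a median difference of 1.33 beside 0.00 for all genes tested. The summed level of the 8 genes, in units of the array's 75th percentile, was 417, 510, 440 and 570 in newborn replicates 1 to 4 and 197, 167, 175 and 202 in premature replicates 1 to 4. Each newborn sum exceeded each premature sum, and MYL6, a myosin light chain not particular to smooth muscle, gave the largest share of the sum (56.6%). In a piece of artery, fewer cells of a type and less RNA per cell cannot be told apart, here and for every list below.

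Calponin 1 (CNN1, NM_001009456), which binds actin and restrains the myosin ATPase, had levels of 6.79, 6.88, 6.70 and 7.43 in newborn replicates 1 to 4 and 5.25, 5.02, 4.93 and 5.22 in premature replicates 1 to 4. The groups stood far apart, with newborn replicate 4 the highest of all, a difference of 1.85 ± 0.17 (SE, n = 4 per group), or 3.59-fold (adjusted p = 0.000135). Myosin light chain kinase (MYLK, S80867), the enzyme that starts contraction by phosphorylating myosin, measured 6.21, 6.48, 5.86 and 6.52 in the newborn lambs and 4.76, 4.36, 3.98 and 4.86 in the premature fetuses. No values overlapped, and the difference of 1.78 ± 0.22 corresponded to 3.43-fold (adjusted p = 0.000576). A further probe for MYLK gave 1.87. Caldesmon 1 (CALD1, EE754657), another actin-binding brake on contraction, stood at -0.52, -0.26, 0.12 and 0.50 in newborn MCA and -2.85, -2.90, -2.43 and -2.29 in premature MCA. It had the widest gap of the list in the main scaling, 2.58 ± 0.23 or 5.98-fold (adjusted p = 0.000127), with every newborn lamb above every fetus. The CALD1 probe is named through the study's table alone. On untreated near-term arrays, hybridized on other slides, 0 were well above background for it, at a mean of -5.37. On untreated adult arrays, also on other slides, 4 were, at a mean of -4.78. Filamin A (FLNA, DY496358), which crosslinks actin to the membrane, rose by 1.49 ± 0.21 (2.8-fold, adjusted p = 0.000906), again without overlap. CALD1 and FLNA lost their call on normexp correction, at 1.53 and 0.97, and CNN1 had the widest gap there, at 1.94.

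**Figure D2:**
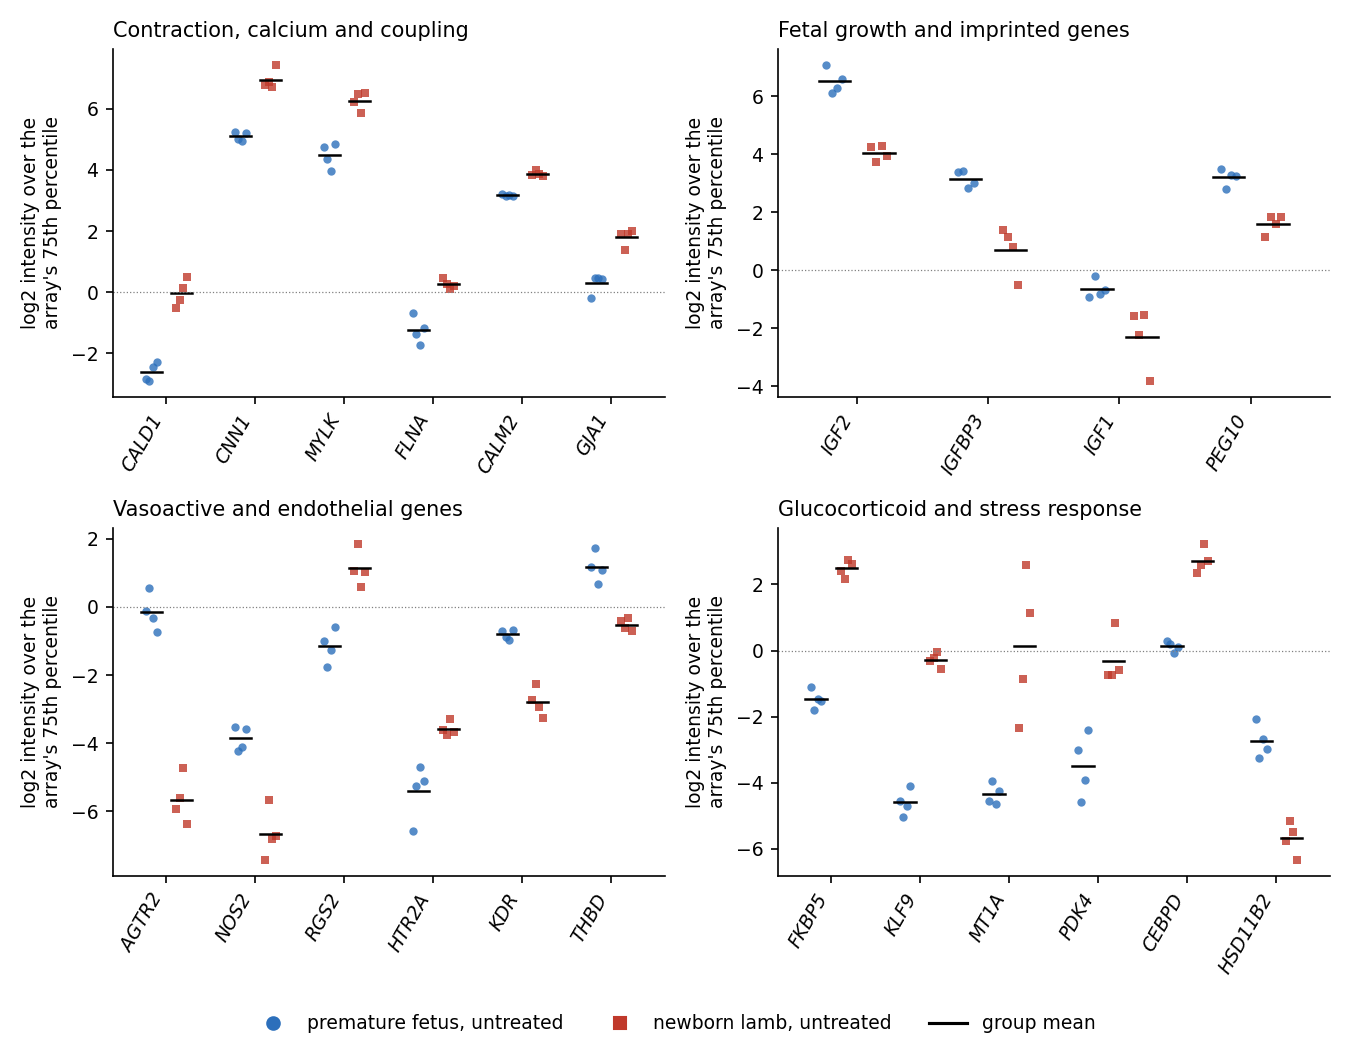
Level of genes of 4 functional groups on each untreated array (log2 intensity over the array's 75th percentile, vertical), premature fetuses as circles, newborn lambs as squares, group means as bars. No newborn value of CNN1, at 6.70 or more, reaches down to a premature value, at 5.25 or less, and IGF2 shows the reverse order.

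Calcium handling and cell coupling were mixed. Of 10 tested members of the ion channel and calcium handling list, 3 were called higher and 1 lower, and the median of 0.13 turned to -0.11 on normexp correction. Calmodulin 2 (CALM2, NM_001009759), the calcium sensor that activates MYLK, was 3.82, 3.99, 3.85 and 3.79 in newborn lambs and 3.20, 3.13, 3.18 and 3.14 in premature fetuses. Its spread within groups was small (SD 0.09 and 0.03), and the difference was 0.70 ± 0.09 (1.62-fold, adjusted p = 0.000841). The calcium pump of the sarcoplasmic reticulum, ATP2A2 (EE765571), rose by 0.74 ± 0.15 (1.67-fold, adjusted p = 0.00515), but by 0.13 and with no call on normexp correction; its other probe rose by 1.43. The gap junction proteins that couple vascular cells went opposite ways, in the main scaling and on normexp, median and quantile scaling alike. Connexin 43 (GJA1, EE753842) was 1.92, 1.37, 1.90 and 2.00 in newborn MCA and -0.19, 0.47, 0.45 and 0.44 in premature MCA, a rise of 2.84-fold (SE 0.19 on the log2 scale, adjusted p = 0.000669), and all 4 of its probes were called higher. Connexin 37 (GJA4, EE793954) fell by 1.33 ± 0.26 (adjusted p = 0.00456), with newborn replicate 4 the lowest of the 8 arrays at -2.25. The other probe the files name GJA4 fell by 1.40, but the study's table gives it a different name.

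Receptors, ligands and enzymes that set vascular tone were more often lower than higher. Of 29 members of that list on the array 20 were tested, 2 were called higher and 8 lower, with a median of -0.42. The type 2 angiotensin receptor (AGTR2, S81979), a receptor typical of fetal tissue that opposes the vasoconstrictor type 1 receptor, measured -0.11, 0.55, -0.32 and -0.72 in premature replicates 1 to 4 and -5.93, -5.62, -4.74 and -6.37 in newborn replicates 1 to 4. All 4 premature arrays were well above background and 0 newborn arrays were, so the newborn level is a ceiling. Means were -0.15 ± 0.53 (SD, n = 4) and -5.66 ± 0.69, and AGTR2 was at least 24.7-fold lower in the newborn lamb (adjusted p = 3.24e-05). Its other probe was also called lower, and normexp correction gave -3.23. Inducible nitric oxide synthase (NOS2, AF223942), which makes nitric oxide independently of calcium, was likewise above background on premature arrays alone, and at least 1.89-fold lower in newborn MCA (means -6.65 ± 0.73 and -3.86 ± 0.37, adjusted p = 0.000526), without a call on normexp correction, at -1.10.

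Genes of the endothelin system were among the calls downward. They fall outside the rule for named genes and were chosen after their values were seen: endothelin 1 (EDN1), the peptide itself, fell by 1.55, its converting enzyme ECE1 by 1.12, the contractile receptor EDNRA by 1.49 and the receptor EDNRB by 1.05. All 4 were called. Also called in the list were endothelial nitric oxide synthase (NOS3), which fell by 1.14, and cyclooxygenase 1 (PTGS1), which fell by 0.87. EDNRB, NOS3 and PTGS1 lost their call on normexp correction, at -0.91, -0.96 and -0.74. The rises were RGS2 and HTR2A. RGS2 (EE836261) shortens signalling from receptors coupled to Gq, the class to which alpha 1 adrenergic receptors belong, and stood at 1.06, 1.84, 0.59 and 1.02 in newborn lambs and -0.99, -1.75, -1.26 and -0.58 in premature fetuses. Its groups did not overlap, at a difference of 2.27 ± 0.30 (4.83-fold, adjusted p = 0.000774). The serotonin receptor HTR2A (AF039389), a vasoconstrictor receptor, was well above background on 4 newborn and 2 premature arrays and was at least 2.5-fold higher (means -3.58 ± 0.20 and -5.41 ± 0.82, adjusted p = 0.00437), without a call on normexp correction, at 0.08. No probe is named for the receptors of PHE itself, ADRA1A, ADRA1B and ADRA1D, and whether a probe without a symbol measures them was not examined.

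Calls among endothelial genes went both ways. Of 17 markers on the array, 12 were tested, 1 was called higher and 4 lower, with a median of -0.20, -0.07 without newborn replicate 4 and -0.35 on normexp correction. With that correction 0 were called higher and 2 lower. The summed level was 7.71, 7.18, 7.96 and 7.28 in newborn replicates 1 to 4 and 10.7, 10.99, 9.81 and 9.52 in premature replicates 1 to 4, PLAT giving the largest share (44.6%). Every premature sum lay above every newborn sum, while F8, FLT1, OCLN and SELE were at background on all 8 arrays and PECAM1, VWF and CDH5 have no named probe. The main receptor for vascular endothelial growth factor (KDR, EE796734) was -2.72, -2.25, -2.92 and -3.26 in newborn MCA and -0.70, -0.88, -0.98 and -0.66 in premature MCA, 3.95-fold lower with no overlap (-1.98 ± 0.20, adjusted p = 0.000201). Thrombomodulin (THBD, EE757003), the endothelial anticoagulant, measured -0.41, -0.62, -0.34 and -0.70 and 1.18, 1.73, 0.68 and 1.08 in the same order, 3.22-fold lower in newborn lambs (-1.69 ± 0.21, adjusted p = 0.000529). SOX18, a transcription factor of vessel growth, was at least 2.72-fold lower (means -4.72 ± 1.34 and -2.65 ± 0.30, adjusted p = 0.0206); without newborn replicate 3 or without premature replicate 1 the difference was -1.96 or -1.95 and the call was lost, as it was on normexp correction, at -1.08. EPAS1, the hypoxia-inducible factor of endothelium, was at least 2.67-fold higher (means -3.62 ± 0.44 and -5.10 ± 0.31, adjusted p = 0.0018), but on normexp correction its difference was -0.0020. The part of endothelial content in the differences of vascular genes was not tested.

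Signals of vessel growth and patterning gave 14 calls lower and 5 higher among 36 tested genes, with a median of -0.30; on normexp correction 7 were called lower and 0 higher. The chemokine receptor CXCR4 (EE828968), which guides growing vessels and blood cells, was -0.91, -1.43, -1.06 and -0.41 in premature fetuses and -3.97, -2.80, -3.70 and -5.22 in newborn lambs. No newborn value reached the premature range, and the fall was at least 6.79-fold (adjusted p = 0.00145), the limit being set by newborn replicate 4, which was not well above background, and normexp correction gave -1.73. Placental growth factor (PGF), a ligand of the same family as vascular endothelial growth factor, was at least 2.94-fold lower (means -5.31 ± 0.47 and -3.22 ± 0.29, adjusted p = 0.000397). SOX4, a factor of progenitor cells, was at least 3.42-fold lower (means -3.99 ± 0.87 and -2.03 ± 0.45, adjusted p = 0.00619), with -1.36 on normexp correction. TGFBI, a matrix protein induced by transforming growth factor beta, was 3.57-fold lower (-1.83 ± 0.31, adjusted p = 0.00254). NRARP (EE855492), which Notch signalling induces and which limits it, measured 1.29, 0.49, 0.19 and 0.70 in premature replicates and -1.63, -0.76, -1.31 and -1.59 in newborn replicates, a separation of -1.99 ± 0.26 (3.97-fold, adjusted p = 0.000726). The receptor for platelet-derived growth factor on mural cells, PDGFRB, went the other way (1.60 ± 0.25, 3.02-fold higher, adjusted p = 0.00178), with 0.44 and no call on normexp correction. CXCR4, SOX4, TGFBI and NRARP kept their call on normexp correction and PGF lost it, at -1.08.

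The fetal growth and imprinted gene list had the largest share of its tested members called lower: of 14 tested genes 9 were lower and 1 was higher, with a median of -1.05. Insulin-like growth factor 2 (IGF2, NM_001009311), the main fetal growth factor, measured 7.07, 6.11, 6.26 and 6.58 in premature replicates 1 to 4 and 4.23, 3.73, 4.28 and 3.92 in newborn replicates 1 to 4. The lowest fetus stood well above the highest lamb, at a difference of -2.47 ± 0.22 or 5.53-fold (adjusted p = 0.000116), and a further probe gave -3.37. IGFBP3 (EE858006), which carries and limits these growth factors, was 3.37, 3.41, 2.82 and 3.02 in premature MCA and 1.38, 1.16, 0.80 and -0.50 in newborn MCA. Newborn replicate 4 was the lowest, and the fall was 5.44-fold (-2.44 ± 0.37, adjusted p = 0.00145). IGF1 (NM_001009774) stood at -0.92, -0.19, -0.81 and -0.68 in the fetuses and -1.56, -2.22, -1.55 and -3.81 in the lambs, lower by 3.1-fold (-1.63 ± 0.46, adjusted p = 0.0233). Newborn replicate 4 was again far below the rest, and without premature replicate 2 or 4 the difference of IGF1 was -1.48 or -1.65 and no longer called. The imprinted, retrotransposon-derived gene PEG10 (EE772353) fell 3.04-fold (-1.61 ± 0.19, adjusted p = 0.000474). The other called members, named after their values were seen, were IGF2R at -1.57, IGFBP5 at -1.22, MEG3 at -1.21, IGFBP6 at -0.90, IGFBP4 at -0.60 and, as the rise, the growth hormone receptor GHR at 1.00; of these IGF2R alone was called on normexp correction. H19 and DLK1 have no named probe.

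Genes of the cell cycle gave 4 calls lower and 2 higher among 14 tested, with a median of -0.31. The spindle gene ASPM was 2.3-fold lower (-1.20 ± 0.27, adjusted p = 0.00888) and thymidylate synthase TYMS, which supplies DNA synthesis, 1.95-fold lower (-0.96 ± 0.24, adjusted p = 0.0153). The calls upward were inhibitors of cyclin-dependent kinases: CDKN1A was 2.47-fold higher (1.30 ± 0.36, adjusted p = 0.0216) and CDKN1B 1.76-fold higher (0.82 ± 0.14, adjusted p = 0.00267). Premature replicate 1 overlapped the newborn range of CDKN1A, which lost its call without premature replicate 2, 3 or 4, at 1.22 to 1.28. None of these 4 calls remained on normexp correction. PCNA, the clamp of the replication fork, was 2.21 ± 0.31 (SD, n = 4) in newborn lambs and 2.66 ± 0.14 in premature fetuses and was not called (adjusted p = 0.06). CCNB1 and TOP2A have no named probe.

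Of 20 tested members of the extracellular matrix list 3 were called higher and 3 lower, a share of 30% beside 28% of all tested genes with a symbol. The median of -0.17 became 0.11 without newborn replicate 4. All 3 calls upward were of genes named through the study's table, as were 14 of the 20; the other 6 had 0 called higher and 2 lower, with a median of -0.87. Tenascin C (TNC, EE825947), a matrix glycoprotein of vessel remodelling and of loaded arteries, was 1.33, 1.99, 1.08 and 1.94 in newborn replicates 1 to 4 and -2.35, -2.39, -2.56 and -3.01 in premature replicates 1 to 4. It had the widest separation of any named gene that rose and was above background on all 8 arrays, 4.16 ± 0.24 or 17.9-fold (adjusted p = 1.61e-05), but 2.85 on normexp correction, where FKBP5 was wider at 3.40. Decorin (DCN, NM_001009218), the small proteoglycan of fibroblasts, measured 6.54, 6.36, 6.50 and 6.35 in the fetuses and 4.93, 4.77, 5.44 and 4.15 in the lambs, 3.06-fold lower (-1.62 ± 0.24, adjusted p = 0.00122). The gelatinase MMP2 was 2.73-fold lower (-1.45 ± 0.48, adjusted p = 0.045) and lost its call without newborn replicate 2 or 4 or without any 1 premature array, at -1.58 to -0.98, and on normexp correction, at -1.21. ADAMTS2, which trims procollagen, was 2-fold higher (1.00 ± 0.22, adjusted p = 0.00868), with 0.19 and no call on normexp correction. EMILIN2, an elastic fibre glycoprotein, was above background on premature arrays alone and at least 4.38-fold lower (means -5.38 ± 0.68 and -2.64 ± 0.43, adjusted p = 0.000532), with -1.46 on normexp correction.

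The fibrillar collagens and elastin were not called, and their newborn values spread widely. COL1A1 was 1.43, 0.47, 2.00 and -0.52 in newborn replicates and 1.52, 2.32, 2.06 and 2.08 in premature replicates (adjusted p = 0.0913); without newborn replicate 3 it was called, at -1.54, and without newborn replicate 4 its difference was -0.70. This probe is named through the study's table alone; the other probe the files name COL1A1 fell by 1.16, but the table gives that one a different name. COL3A1 measured 2.89, 2.33, 3.24 and 1.49 and 2.14, 3.01, 2.55 and 2.72 in that order, and elastin (ELN) 3.89, 2.28, 3.37 and 1.86 and 2.36, 2.44, 2.14 and 2.23. In each of these genes newborn replicates 1 and 3 stood above newborn replicates 2 and 4. The difference of ELN was 0.56 ± 0.39 (adjusted p = 0.304), of COL3A1 -0.12 ± 0.35 (adjusted p = 0.821), and of COL1A2 -0.14 ± 0.50 (adjusted p = 0.853). COL1A2 has another probe, which rose by 1.45 and was called, so that its direction depends on the probe, and the sign of COL1A2 and of COL3A1 also turned when single arrays were left out.

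Fibroblast and mural cell markers were measured beside these genes. All 6 on the array were tested, 1 was called higher and 3 lower, with a median of -1.15, and -0.75 without newborn replicate 4. Their summed level was 34.7, 29.5, 49.7 and 19.1 in newborn replicates 1 to 4 and 97.4, 88.9, 95.9 and 87.5 in premature replicates 1 to 4, with DCN at 92.8% of the sum. The newborn sums all lay under the premature sums, with newborn replicate 4 the lowest, and 0 of the 6 were at background. DPT, a dermatopontin matrix gene, was at least 3.12-fold lower (means -4.46 ± 0.63 and -2.71 ± 0.74, adjusted p = 0.00991), although newborn replicate 3 overlapped the premature range. THY1 was 2.2-fold lower (-1.14 ± 0.33, adjusted p = 0.0253) and lost its call without premature replicate 1 or 4, at -1.12 or -1.03. On normexp correction DPT was at -1.27 and THY1 at -0.95, neither called. What part connective tissue left on the segments has in the matrix values was not tested.

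**Figure D3:**
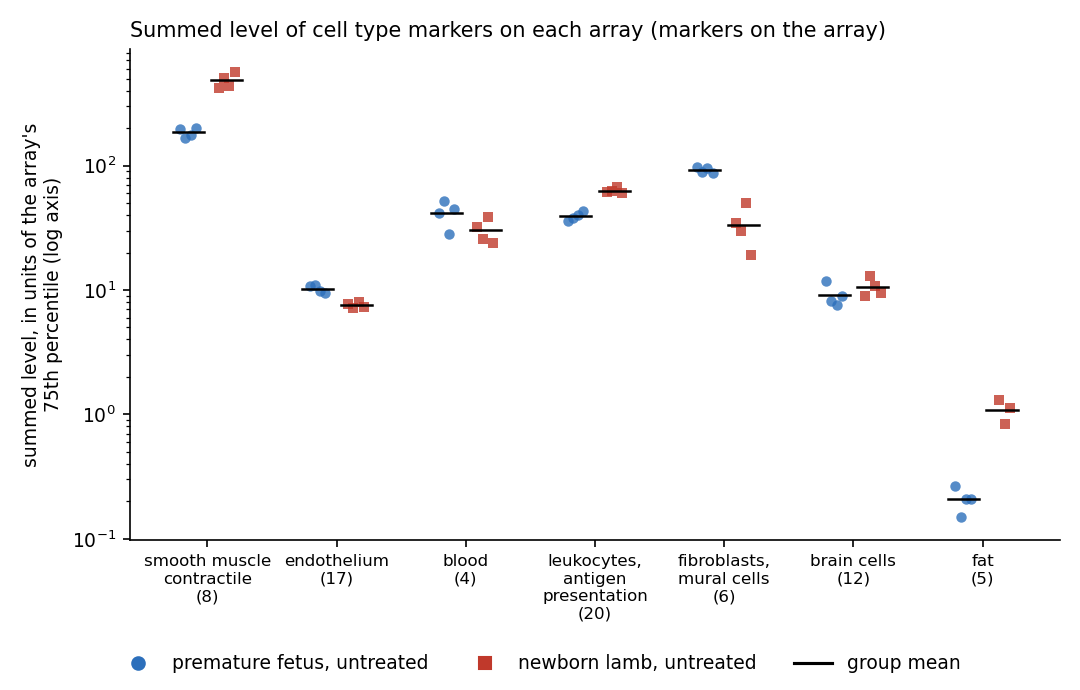
Summed level of each list of cell type markers on each untreated array, in units of the array's 75th percentile (vertical, log axis), premature fetuses as circles, newborn lambs as squares, group means as bars. Contractile sums are all higher in the newborn lambs, at 417 or more, and fibroblast sums all lower, at 49.7 or less; newborn replicate 1 has no sum for fat because 1 of its spots was marked as an outlier.

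Genes of the glucocorticoid and stress response were among the strongest rises. Of 25 tested members 14 were called higher and 2 lower, with a median of 1.02, and on normexp correction 7 and 1. Their names lean on the study's table: 18 of the 25 were named through it, and among the 7 named otherwise 2 were called higher and 1 lower, with a median of -0.27. FKBP5 (EE863953), a chaperone that the glucocorticoid receptor induces and that restrains the receptor, was 2.41, 2.17, 2.74 and 2.63 in newborn replicates 1 to 4 and -1.10, -1.81, -1.48 and -1.53 in premature replicates 1 to 4. Neither group came near the other, at 3.96 ± 0.18 or 15.6-fold (adjusted p = 9.17e-06). KLF9 (EE874417), a transcription factor induced by glucocorticoids and thyroid hormone, stood at -0.32, -0.23, -0.04 and -0.57 in newborn lambs and -4.55, -5.04, -4.70 and -4.08 in premature fetuses. With 3 premature arrays well above background, it was 19.8-fold higher (adjusted p = 9.93e-06), with 2.09 on normexp correction. No value was raised for a bound, so this fold is an estimate. The metallothionein MT1A (EE798177), a metal-binding stress protein, ranged widely in the newborn lambs, at -2.34, -0.87, 2.57 and 1.13, against -4.55, -3.95, -4.64 and -4.24 in the fetuses. Newborn replicate 3 was highest and replicate 1 lowest, yet no value overlapped, and the rise was 22.1-fold (adjusted p = 0.00514), again an estimate with no value raised. Its difference was 3.65 to 5.29 with single arrays left out, and it was not called on normexp correction, at 2.56.

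CEBPD (DY495847), a transcription factor of acute stress, measured 2.35, 2.59, 3.22 and 2.72 in newborn MCA and 0.30, 0.19, -0.07 and 0.09 in premature MCA. The separation was 2.59 ± 0.18 (6.03-fold, adjusted p = 4.44e-05), and the premature values were close together (SD 0.15). The enzyme that inactivates cortisol, HSD11B2 (NM_001009460), which shields fetal tissue from it, went down. It was -2.08, -3.25, -2.67 and -2.98 in premature replicates 1 to 4, all well above background, and -5.77, -5.15, -5.48 and -6.33 in newborn replicates, none of them so. The fall was at least 4.08-fold (adjusted p = 0.000222), its other probe was also called lower, and normexp correction gave -1.56. HR, a corepressor of nuclear receptors named through the table, was above background on newborn arrays alone and at least 12.1-fold higher (means -1.43 ± 0.34 and -5.10 ± 0.43, adjusted p = 3.06e-05), without a call on normexp correction, at 1.23.

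**Figure D4:**
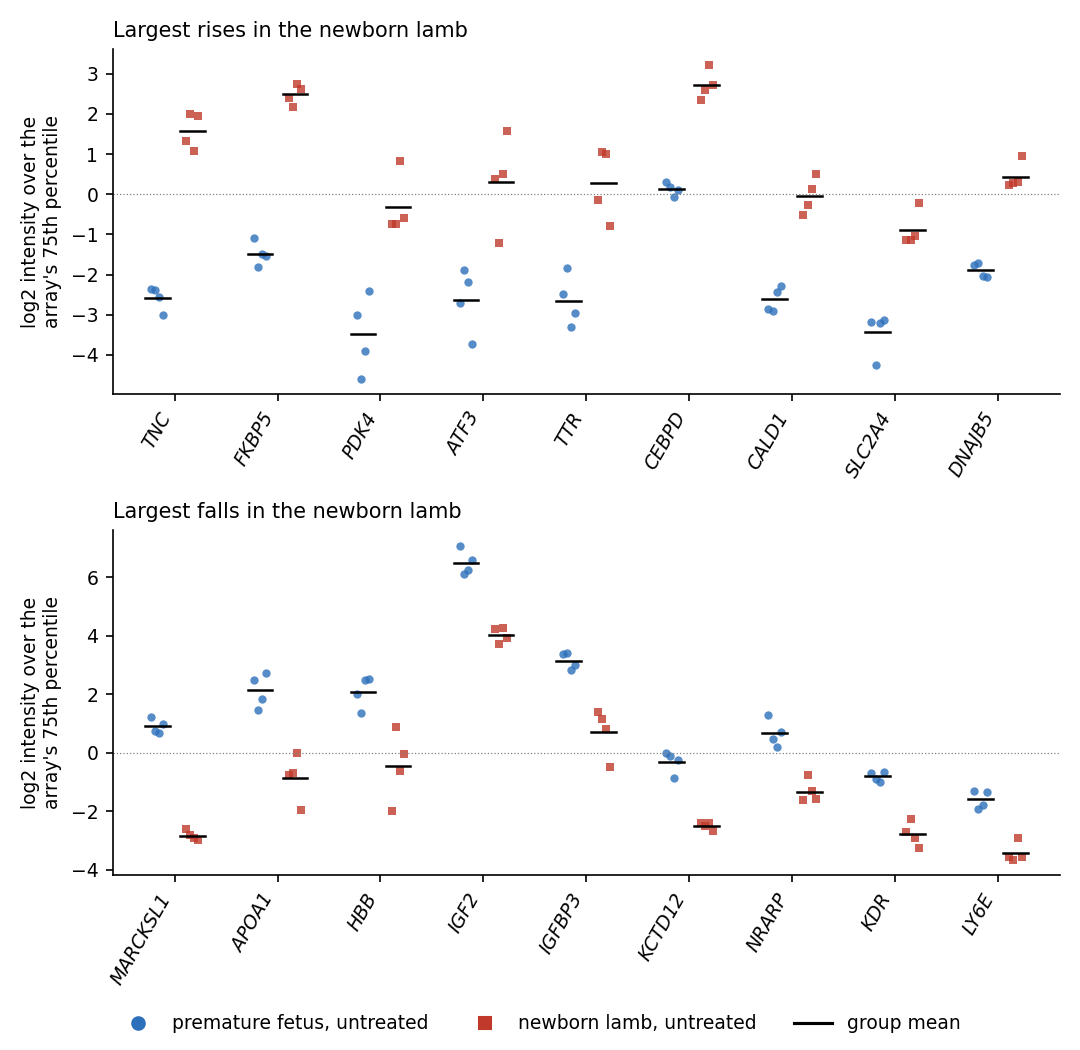
Level on each untreated array (log2 intensity over the array's 75th percentile, vertical) of 9 of the 10 genes with the largest rises and 9 of the 10 with the largest falls among called genes with a symbol, well above background on all 8 arrays, whose groups do not overlap. Premature fetuses are circles, newborn lambs squares and group means bars; FKBP5 and MARCKSL1 have narrow groups far apart, whereas PDK4 ranges from -4.59 to -2.40 among the fetuses.

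Of 15 tested genes of mitochondria and fatty acid metabolism 6 were called higher and 1 lower, with a median of 0.32, and 0 were called on normexp correction. PDK4 (EE859238), the kinase that turns cells from glucose to fatty acid oxidation, was -0.73, -0.74, 0.83 and -0.60 in newborn replicates and -3.02, -4.59, -3.91 and -2.40 in premature replicates. Newborn replicate 3 stood above the other lambs, and the difference was 3.17 ± 0.51 (9.02-fold, adjusted p = 0.0018), reduced to 1.81 with no call on normexp correction. The insulin-responsive glucose transporter SLC2A4 (AB005283) was -1.15, -1.14, -1.04 and -0.23 in the lambs and -3.18, -4.26, -3.21 and -3.13 in the fetuses, 5.87-fold higher (2.55 ± 0.30, adjusted p = 0.00041). Cytochrome c (CYCS) was at least 5.18-fold higher (means -2.45 ± 0.82 and -5.11 ± 0.38, adjusted p = 0.00104). Lipoprotein lipase (LPL), which frees fatty acids from blood lipid, was 2.68-fold higher (means -2.60 ± 0.49 and -4.02 ± 0.49, adjusted p = 0.00612). For LPL 2 premature arrays were well above background and no value was raised for a bound. SLC2A4, CYCS and LPL kept their direction but lost their call on normexp correction, at 1.30, 0.44 and 0.20. Of the 8 tested cholesterol and lipid synthesis genes 0 were called by limma, while 1 had an unadjusted p under 0.05 in limma and 2 in the test of the study's methods. Squalene epoxidase SQLE, at 1.74 ± 0.30 and 2.29 ± 0.27, had an adjusted p of 0.0482 but missed 1.5-fold, which it passed without newborn replicate 4 or premature replicate 2, at -0.66 in either case, and when arrays were scaled to their median (-0.59) or quantile normalized (-0.60).

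The fatty acid binding protein FABP4 (EE751877), of fat cells, macrophages and endothelium, showed one of the widest gaps. It was 0.13, -0.66 and -0.32 in newborn replicates 2 to 4, replicate 1 being dropped from the fit because its spot was marked as an outlier, and -7.22, -5.65, -4.88 and -5.19 in premature replicates 1 to 4. The rise was at least 25.8-fold (n = 3 and 4, adjusted p = 0.000249), without a call on normexp correction, at 2.47. Of 5 fat markers on the array 4 were tested and 1 was called, higher, and the median of 0.50 became -0.29 on normexp correction. Their summed level was 1.31, 0.844 and 1.13 in newborn replicates 2 to 4 and 0.267, 0.149, 0.208 and 0.211 in premature replicates 1 to 4. FABP4 had the largest share (39.3%), and UCP1 was at background on all 8 arrays. The part of fat left on the segments in the level of FABP4 was not tested.

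Of 26 tested genes of oxygen sensing and antioxidant defence 5 were called higher and 3 lower, a share of 30.8% beside 28% of all tested genes with a symbol. Their median of 0.14 turned to -0.02 on normexp correction. With that correction 1 was called higher and 0 lower. Among the 9 named otherwise than through the study's table, 4 were called higher and 0 lower, with a median of 0.57. The glucose transporter SLC2A1 was 2.8-fold higher (1.48 ± 0.18, adjusted p = 0.000532), with 0.59 and no call on normexp correction. Hexokinase 2 (HK2), which traps glucose in the cell, was at least 1.74-fold higher (means -4.28 ± 0.33 and -5.67 ± 0.38, adjusted p = 0.0018), but normexp correction turned it to -0.19 and dropping the filter on dim probes, which brought in another probe, to -0.18. Heme oxygenase 1 (HMOX1), which breaks down heme, was at least 1.63-fold lower (means -5.31 ± 0.66 and -4.06 ± 0.23, adjusted p = 0.0118), without a call on normexp correction, at -0.82.

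Calls among early response genes and chaperones were mostly upward. Among 26 tested immediate early genes, 18 of them named through the study's table, 11 were called higher and 1 lower (median 0.70), and among 13 heat shock genes 8 were called, each higher (median 0.69). On normexp correction 4 and 5 genes of these lists were called higher and 0 lower. ATF3 (EE756331), a stress-induced transcription factor, was 0.38, -1.23, 0.51 and 1.58 in the lambs and -2.70, -1.89, -2.18 and -3.73 in the fetuses. Newborn replicate 2 came closest to the premature range, and the difference was 2.94 ± 0.58 (7.66-fold, adjusted p = 0.00491). The phosphatase DUSP1 (FE036008), which switches off MAP kinases, stood at 3.24, 1.69, 2.85 and 2.98 and 0.57, 0.97, -0.01 and 0.25 in the same order, 4.74-fold higher (2.24 ± 0.34, adjusted p = 0.00143). The AP-1 subunit FOSL2 was 4.24-fold higher (2.09 ± 0.23, adjusted p = 0.000339). PPP1R15A, which reopens translation after stress, and RGS1, a brake on chemokine receptors, were above background on newborn arrays alone. They were at least 3.56-fold (adjusted p = 0.00105) and 2.57-fold (adjusted p = 0.000686) higher, at means of -3.20 ± 0.65 against -5.93 ± 0.67 and of -3.75 ± 0.49 against -6.36 ± 0.65, but RGS1 was at -0.0028 on normexp correction. ATF3 and PPP1R15A lost their call there, at 1.75 and 0.27.

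Among the chaperones, HSPA1A, the inducible heat shock protein, was 3.67-fold higher (1.88 ± 0.29, adjusted p = 0.00152). The small heat shock protein CRYAB (NM_001012457), abundant in muscle, measured 4.59, 4.69, 4.99 and 5.15 in newborn MCA and 3.29, 3.59, 3.82 and 3.64 in premature MCA, 2.41-fold higher without overlap (1.27 ± 0.16, adjusted p = 0.000636). BAG3, its partner in clearing damaged filaments, was 2.1-fold higher (1.07 ± 0.15, adjusted p = 0.000877). HSPH1 was 2.01-fold higher (adjusted p = 0.00868), with 0.32 and no call on normexp correction. DNAJB5 (EE829719), a cochaperone, was 0.23, 0.28, 0.30 and 0.94 in the lambs and -1.77, -1.72, -2.05 and -2.06 in the fetuses, 5.06-fold higher (2.34 ± 0.18, adjusted p = 6.63e-05), with 1.71 on normexp correction. How much of these levels arose in the bath was not tested.

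The segments treated with PHE were on the same slides and, by their replicate numbers, likely came from the same animals, and give the age difference a further time. There 2284 of the 9517 genes were called (24%), 1193 higher in the newborn lamb (12.5%) and 1091 lower (11.5%). The median of the immediate early list was -0.40 with PHE, against 0.70 untreated, and that of the heat shock list -0.33 against 0.69. For glucocorticoid genes it was 0.16 against 1.02, with 6 called higher and 3 lower, for fetal growth genes -0.37 against -1.05, with 1 higher and 6 lower, and for contractile genes 1.62 against 1.33. Single genes gave, with PHE, -0.39 for ATF3, 0.07 for CEBPD, 1.90 for CNN1, -2.24 for IGF2 and 3.08 for FKBP5.

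Immune genes were called in both directions. Of 20 leukocyte and antigen presentation markers on the array 14 were tested, 3 were called higher and 4 lower, with a median of -0.54, -0.28 without newborn replicate 4 and 0.34 over members above background on all 8 arrays. The summed level was 61.4, 62.9, 67.5 and 59.9 in newborn replicates 1 to 4 and 36.0, 38.2, 39.9 and 43.1 in premature replicates 1 to 4. B2M, the light chain of class I molecules that most cells make, gave 86.1% of it, while CD3D, CD4, ITGAM and NCF1 were at background on all 8 arrays and PTPRC has no named probe. The class I peptide transporter TAP2 was 2.02-fold higher (1.02 ± 0.12, adjusted p = 0.000449) and the class II chain CD74 2.21-fold higher (1.14 ± 0.35, adjusted p = 0.0343), the latter with premature replicate 4 inside the newborn range. CD74 lost its call without newborn replicate 1, 2 or 3 or premature replicate 1, 2 or 3, at 0.85 to 1.20. The oxidase subunit CYBA was 3.14-fold lower (-1.65 ± 0.32, adjusted p = 0.00485). The T cell chain CD3E was at least 2.49-fold lower (means -4.94 ± 1.23 and -3.22 ± 0.33, adjusted p = 0.032) and lost its call without newborn replicate 2 or premature replicate 2, 3 or 4, at -1.81 to -1.59, with -1.12 and a call without newborn replicate 1. On normexp correction TAP2, CD74 and CD3E were not called, at 0.18, 0.41 and -0.91.

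GNLY (NM_001105262), granulysin of cytotoxic cells, was above background on newborn arrays alone, at -1.45, -3.46, -0.76 and -1.70, and at least 9.64-fold higher than in the fetuses (means -1.84 ± 1.15 and -6.81 ± 0.56, adjusted p = 0.000259). Its other probe gave 1.25, and on normexp correction it was at 1.32 with no call. Of 10 tested interferon response genes 1 was called, higher (median 0.42, and 0.068 on normexp correction). The chemokine CXCL10 was at least 4.31-fold higher (means -1.77 ± 0.86 and -3.96 ± 1.03, adjusted p = 0.0152), with 0.84 and no call on normexp correction. In PHE-treated segments CXCL10 was called in the other direction, lower in the newborn lamb by 2.67 (adjusted p in limma = 0.000876). Cytokines and chemokines gave 1 call in each direction among 11 (median -0.16, and 0.058 over members above background on all 8 arrays). XCL1 was 2.8-fold higher (adjusted p = 0.000873), and its other probe rose by 2.94. CXCL5 was at least 2.02-fold lower (means -4.41 ± 0.75 and -3.22 ± 0.50, adjusted p = 0.0379), with overlapping groups and no call without newborn replicate 1, 3 or 4 or premature replicate 1, 2 or 3, at -1.23 to -0.96. Neither was called on normexp correction, at 0.30 and -0.93.

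Markers of brain and blood were read for tissue carried along with the artery. Of 12 brain markers on the array 8 were tested, 1 was called higher and 3 lower, with a median of -0.24, which turned to 0.27 over members above background on all 8 arrays and to 0.98 without the names from the study's table. The summed level was 8.91, 12.9, 10.8 and 9.40 in newborn replicates 1 to 4 and 11.8, 8.17, 7.61 and 8.94 in premature replicates 1 to 4, so the groups overlapped. TUBB3 gave 74.6% of it, and AQP4, NEFH, SLC1A2 and SLC1A3 were at background on all 8 arrays. The myelin gene MBP and the astrocyte filament GFAP were at least 2.66-fold and 1.88-fold lower in newborn MCA (adjusted p = 0.0259 and 0.012), from premature means of -2.82 ± 0.43 and -3.35 ± 0.44 to newborn means of -4.81 ± 1.33 and -4.31 ± 0.30. MBP lost its call without premature replicate 1, 2 or 4, at -2.01 to -1.79, and its difference ranged from -2.33 to -1.35 over all single arrays left out. On normexp correction neither MBP nor GFAP was called, at -1.06 and -0.76. Transthyretin (TTR, NM_001009800), the thyroid hormone carrier that the choroid plexus and liver secrete, went up. It was -0.15, 1.05, 1.01 and -0.79 in the lambs and -2.48, -1.84, -3.31 and -2.96 in the fetuses, 7.62-fold higher with no overlap (2.93 ± 0.46, adjusted p = 0.00162), with 1.97 on normexp correction. The part of brain tissue in these values was not tested.

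Of 4 blood markers on the array 2 were tested and 1 was called, lower. The summed level was 32.3, 25.8, 38.5 and 24.0 in newborn replicates 1 to 4 and 41.6, 51.8, 28.3 and 44.8 in premature replicates 1 to 4, with overlap, HBA1 giving 92.3% and CA1 at background. HBA1 differed by -0.32 ± 0.25 and was not called (adjusted p = 0.347). The probe reported for HBB (NM_001097648), a beta-type globin, measured -1.98, 0.88, -0.63 and -0.05 in the lambs and 2.01, 1.36, 2.49 and 2.52 in the fetuses, 5.81-fold lower (-2.54 ± 0.54, adjusted p = 0.0071). A further HBB probe rose by 2.00 and was called, so that the direction of HBB depends on the probe, and HBG has no named probe. The part of trapped blood in these values was not tested.

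The remaining large falls joined no list. MARCKSL1 (EE824841), an actin regulator at the membrane of growing cells, was 1.21, 0.76, 0.68 and 1.00 in premature replicates 1 to 4 and -2.62, -2.82, -2.90 and -2.98 in newborn replicates 1 to 4. Both groups were tight, and the fall was 13.4-fold (-3.74 ± 0.15, adjusted p = 3.46e-06; -3.01 on normexp correction). Apolipoprotein A1 (APOA1, CN824358), of high density lipoprotein, was 2.50, 1.48, 1.84 and 2.72 in the fetuses and -0.75, -0.71, -0.01 and -1.95 in the lambs, 7.96-fold lower (-2.99 ± 0.41, adjusted p = 0.000876). KCTD12, a subunit of GABA-B receptors, was 4.51-fold lower (-2.17 ± 0.18, adjusted p = 9.53e-05) and LY6E, a membrane-anchored protein, 3.58-fold lower (-1.84 ± 0.21, adjusted p = 0.000339; -1.24 on normexp correction). TMEM158, a gene induced by Ras, was above background on premature arrays alone and at least 3.29-fold lower (means -4.96 ± 0.60 and -2.90 ± 0.46, adjusted p = 0.00159), without a call on normexp correction, at -1.26.

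**Figure D5:**
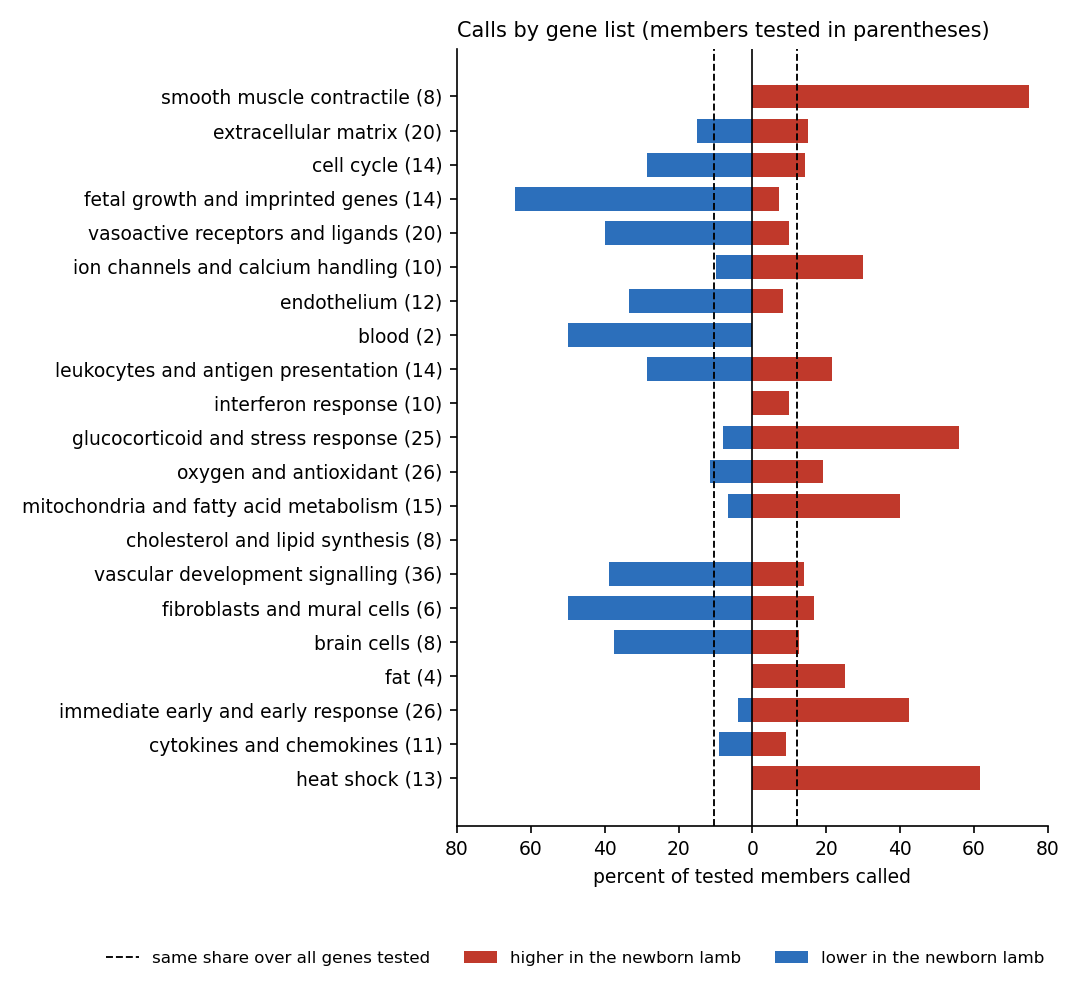
Percent of the tested members of each of the 21 gene lists that were called lower (to the left) or higher (to the right) in the newborn lamb, with the number tested in parentheses. Dashed lines mark the same percent over all genes tested, 12.1 higher and 10.5 lower. Over tested genes with a symbol, from which the lists are drawn, it was 15.1 higher and 12.9 lower (not drawn). The contractile list reaches furthest to the right and the fetal growth list furthest to the left.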

How the data were processed

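The deposited values are processed intensity per spot, which per the file headers the authors read with Agilent Feature Extraction 9.5.3.1, with background subtracted within each array and no scaling between arrays. The deposited matrix holds the same intensity values. Spots marked as outliers were set missing, controls dropped, repeated spots averaged, each array divided by its 75th percentile, and log2 taken. Models were fitted with limma (version 3.58.1, R 4.3.3). Tables were made in pandas 2.3.3 and numpy 2.4.6 under Python 3.11.15, and figures in matplotlib 3.10.9, beside scipy 1.17.1. The steps were tested on simulated data.

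Of 15008 probes, 521 were named through their sequence record, 962 by the file and 1723 by matching group means within 0.1% to the study's table, whose name was equal for 59 of 63 and 110 of 122 probes that had the other name too; 11802 had no symbol. A gene's brightest probe stood for it. Of the probes, 9920 passed the filter. limma's moderated test compared 4 with 4 arrays, with Benjamini-Hochberg adjustment over all genes tested. The age difference with PHE and its change between PHE-treated and untreated segments came from 16 arrays.

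Where an array was not well above background, its value was raised to the lowest value so marked on it, which gives the bounds. Named genes were the 10 largest rises and 10 largest falls with a symbol, above background on all 8 arrays and without overlap; the 4 brightest in each direction that were above background in 1 group alone; up to 4 called members with the largest change of each of 21 lists, or the brightest if none was called; and a set of markers whatever their result. A few genes that met these rules are not reported here. Members and lists were chosen with earlier results of these data known. Untreated and PHE-treated segments of the same replicate number gave correlations, across genes, of deviations from the group mean of 0.43 to 0.58. Alternatives to the threshold, test, background correction, scaling, filter, probe choice, arrays in the fit, block, values and names were tried, and each array was left out.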

Additional observations from a re-analysis of the deposited data

Results flagged for a closer look

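In 188 groups of 4 values (named genes, array measures and marker sums), 10 had a sample far from the others, judged by the gap to its nearest neighbour divided by the range of the group. Chance flags about 1 in 20 groups. The ratio was 0.911 for PDK4 in newborn replicate 3, the highest; 0.874 for SLC2A4 in newborn replicate 4, the highest; 0.930 for SLC2A4 in premature replicate 2, the lowest; and 0.907 for DNAJB5 in newborn replicate 4, the highest. It was 0.866 for LY6E in newborn replicate 3 and 0.936 for HR in newborn replicate 2, both the highest. GJA1 gave 0.843 in newborn replicate 2 and 0.968 in premature replicate 1, both the lowest. GJA4 gave 0.918 in newborn replicate 4, the lowest, and DPT gave 0.837 in newborn replicate 3, the highest.

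For 11 named genes the age difference itself differed between PHE-treated and untreated segments in limma, adjusted over all genes tested, as it did for 80 of those 9517 genes (0.841%). The number of named genes was 9 with median scaling and 10 with a block on replicate number. Many named genes were chosen for a large untreated difference, which favours a smaller difference with PHE. For CXCL10 the direction was reversed, with a call lower in the newborn lamb with PHE. The change, as the age difference with PHE minus the untreated one on the log2 scale, was -4.86 for CXCL10 (adjusted p = 0.00659), -3.33 for ATF3 (adjusted p = 0.0469), -3.26 for PPP1R15A (adjusted p = 0.0119), -3.21 for RGS1 (adjusted p = 0.0277) and -2.86 for RGS2 (adjusted p = 0.00281). It was -2.52 for CEBPD (adjusted p = 0.000376), -2.28 for DUSP1 (adjusted p = 0.0352), -1.92 for HK2 (adjusted p = 0.0147), -1.58 for DNAJB5 (adjusted p = 0.0138) and -1.38 for KLF9 (adjusted p = 0.036). MARCKSL1 changed the other way, by 2.05 (adjusted p = 0.0102), its fall being smaller with PHE. Untreated premature arrays not well above background make 4 of these changes uncertain in size: with such values raised as for the bounds they were -2.35 for PPP1R15A, -1.95 for RGS1, -1.32 for HK2 and -4.78 for CXCL10. The untreated and PHE-treated segments of each age share a slide and, by replicate number, likely their animals, which this fit does not use; with the animal as a block, chosen after seeing the data, APOA1, DCN, ADAMTS2, NOS2, GJA1, TAP2, MT1A, FOSL2 and HSPH1 passed as well.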

How the results depend on the processing

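Age could not be separated from slide: a slide block could not be fitted, since each slide held 1 age. Dim probes limit the smaller folds. With the replicate block (paired by number) 2063 genes were called, 1137 higher and 926 lower, and in PHE-treated segments 2385. Newborn and premature replicates of the same number correlated, in their deviations from the group mean, at -0.14 to 0.11, and most samples correlated best with another number. Single arrays left out gave 1931 to 2214 calls untreated, 1075 to 1190 higher and 856 to 1024 lower, and 2048 to 2294 with PHE. Fewer genes were called with Welch's test adjusted by Benjamini-Hochberg (1391, 559 of them lower), in the fit of 32 arrays (1119; 591 higher and 528 lower) and on normexp correction (699; 360 higher and 339 lower). On normexp the median SE was 0.231 in place of 0.153, and the median size of the called differences fell from 0.96 to 0.75, with 2000 of the 2160 in the same direction. Of 78 called named genes, 57, 53 and 37 kept their call in these 3, 74 with the replicate block, and 9 lost it with some array left out. The named genes whose age difference changed with PHE numbered 11 in the main fit, 9 with median scaling and 10 with the replicate block. Blocking by animal, an alternative chosen after seeing the data, gave 20.

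These signs turned: on normexp, RGS1 at -0.0028, EPAS1 at -0.0020, HK2 at -0.19 and COL3A1 at 0.0057; with no filter, HK2 at -0.18; with the mean of probes, COL1A2 at 0.66. Leaving out arrays turned COL1A2 (0.11 without newborn replicate 2, 0.28 without newborn replicate 4; range -0.53 to 0.28) and COL3A1 (0.21 without newborn replicate 4, 0.01 without premature replicate 2; range -0.37 to 0.21).

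List medians moved on normexp to 1.13 (contractile), -0.11 (ion channels), 0.068 (interferon) and -0.29 (fat), and, within the spread of the list median between arrays, to 0.68 (glucocorticoid), -0.35 (endothelium), 0.17 (mitochondria), -0.21 (cholesterol) and -0.29 (cytokines). With genes above background on all 8 arrays, so fewer genes, they were 0.54 (ion channels), 0.34 (leukocytes), 0.27 (brain), 0.035 (fat) and 0.058 (cytokines). The mean of probes gave -0.30 for blood. Without the table's names, so fewer genes, they were 1.18 (contractile), -0.87 (matrix), -0.13 (ion channels), -2.54 (blood), 0.73 (interferon), -0.27 (glucocorticoid), 0.57 (oxygen), 0.98 (brain), 0.035 (fat) and 0.94 (heat shock). In the same setting they were 0.65 (mitochondria), -0.21 (cholesterol) and -0.28 (cytokines). Leaving out arrays gave -0.31 to 0.11 for matrix, -0.65 to -0.28 for leukocytes, -0.33 to -0.07 for endothelium and -1.47 to -0.75 for fibroblasts, the upper ends without newborn replicate 4, and -0.50 to -0.19 for cell cycle, 0.03 to 0.23 for ion channels, 0.27 to 0.74 for fat, -0.23 to -0.03 for cytokines, -0.15 to -0.01 for cholesterol and 0.12 to 0.22 for oxygen. Where no cause is given, the cause was not tested.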

Other observations

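Untreated segments of near-term fetuses (labelled 146 days of gestation, 140 days in the methods) and adult sheep (labelled 2 years, 18 to 24 months in the methods) were hybridized on other slides on another scan day, and their levels are given as values with no comparison. The near-term arrays differed widely in brightness, with 75th percentiles from 124 to 1368. Of genes well above background on all of these arrays, mean levels (± SD, n = 4) in near-term fetuses and adults were 7.92 ± 0.69 and 8.64 ± 0.60 for CNN1, -0.51 ± 0.73 and 2.88 ± 0.29 for TNC, 1.92 ± 0.42 and 3.57 ± 0.30 for FKBP5, and 5.31 ± 1.16 and 0.67 ± 0.98 for IGF2. These genes are examples and do not stand for all that met the condition. Also meeting it were KLF9, at -2.61 ± 1.12 and -2.39 ± 0.55, CALM2, at 1.90 ± 0.65 and 2.62 ± 0.16, and TTR, at -0.84 ± 1.13 and -3.93 ± 1.06.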
